A study of Mus musculus with 9 samples.

Results

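Neurotrophins are secreted growth factors that keep sensory neurons alive and set how they respond to injury and inflammation. The 6 genes described here are the ligands Bdnf, Ntf3 and Ntf5, the tyrosine kinase receptors Ntrk2 (TrkB) and Ntrk3 (TrkC), and Ngfr, the p75 receptor that binds every neurotrophin. They were chosen by name, when earlier results of these data were known. With 47 transcripts they are 6 of the 21809 genes in the mRNA table. BDNF and the product of Ntf5 signal through TrkB, the product of Ntf3 mainly through TrkC, and in sensory ganglia BDNF is made by peptidergic nociceptors and transported to their central endings. Ngfr is found in sensory neurons and in Schwann cells.

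RNA of the trigeminal ganglion (TG), which holds the cell bodies of the sensory neurons of the face and jaw, was sequenced in 9 libraries from wild-type male C57BL/6 mice of 8 weeks. The mice had received a unilateral injection of 10 µl into the temporomandibular joint (TMJ), either of saline or of complete Freund's adjuvant (CFA, 5 mg/ml), which causes a lasting inflammation of the joint. The groups were saline (replicates 1 to 3, labelled as day 3), CFA3D (replicates 1 to 3, day 3 after CFA) and CFA6D (replicates 4 to 6, day 6 after CFA), and the saline libraries served as controls for both days. Each library pooled unilateral TG punches of 3 mice, so the spread between libraries is a spread between pools. None of the saline libraries is labelled as day 6, so for CFA6D the day and the CFA cannot be told apart.

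Levels are FPKM (fragments mapped to a transcript, divided by its length and by library depth), and a gene's level is the sum over its transcripts. From the smallest steps in the table, 30.0 to 42.2 M read pairs stood behind a library, and 1 read pair in 1 kb of transcript was worth 0.0237 to 0.0333 FPKM. The 15 neuron markers were all above 0 in all 9 libraries, as the tissue label requires. Markers of neighbouring tissues stood high in some libraries. The summed FPKM of 8 pituitary markers was 10701 in saline replicate 3, between 8.93 and 1118 in the other libraries, and that of 10 skeletal muscle markers was 202 in saline replicate 2 and 87.8 in CFA6D replicate 6, against 1.89 to 46.8 elsewhere. Saline replicate 3 and CFA6D replicate 6 also stood apart in a principal component analysis. In bulk tissue fewer cells of a type and less RNA per cell cannot be told apart.

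Ngfr had the highest level of the family, with 84.8 FPKM on average over the 9 libraries, followed by Ntrk3 with 26.95, Ntrk2 with 23.4 and Bdnf with 3.30. Ntf3 and Ntf5 were close to the limit of detection, at 0.142 and 0.0391 FPKM. The ranges of Ntrk3 and Ntrk2 overlapped, as did those of Ntf3 and Ntf5, and the other neighbours in this order did not. Receptor RNA thus exceeded ligand RNA in every library.

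**Figure D1:**
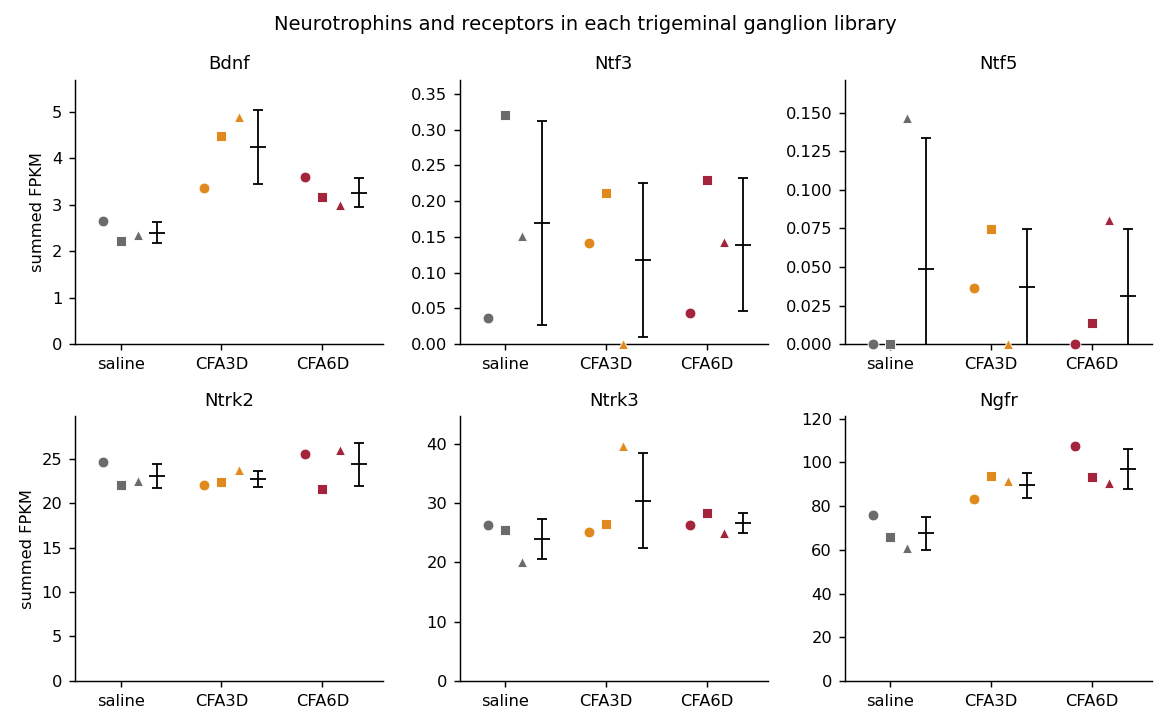
Summed FPKM of the 6 genes (vertical axis, linear and starting at 0, with its own scale for each gene) in the 9 libraries; circles, squares and triangles are replicates 1, 2 and 3 of saline and CFA3D and 4, 5 and 6 of CFA6D, and bars are the mean ± SD of 3 libraries. Bdnf and Ngfr lie above every saline library on both days, and 1 CFA3D library lies far above the rest in Ntrk3.

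The ligand Bdnf and the receptor Ngfr were higher after CFA on both days. Each comparison was a limma fit of log2(FPKM + 0.1), in which 5 of the 6 gene sums reached the mean of 0.1 FPKM needed for a test and Ntf5 did not. On CFA3D 2 of these 5 had an unadjusted p under 0.05, against 4.45% of the 16096 gene sums tested, and the same 2 did not overlap with saline, against 9.13%. On CFA6D it was again 2 of 5 by either measure, against 11.1% and 16.2%. The stricter call, which adds a change of 1 log2 unit or more in either direction, was met by 0 of the 5 on CFA3D and by 0 on CFA6D, against 0.342% and 0.584% of all gene sums. In limma with Benjamini-Hochberg adjustment 0 members had an adjusted p under 0.05, nor had any other gene sum in the table on either day. The members' median log2 fold change was 0.32 on CFA3D and 0.16 on CFA6D, and that of all gene sums tested was 0.05 and 0.03.

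Bdnf, the ligand of TrkB and a mediator of pain sensitisation, lies on the plus strand at chr2:109674700-109727007 (GRCm38). Its summed level was 2.64, 2.22 and 2.34 FPKM in saline, 3.36, 4.48 and 4.88 FPKM on CFA3D and 3.60, 3.16 and 2.99 FPKM on CFA6D. Both CFA groups lay above saline without overlap, and the CFA6D libraries lay low in the CFA3D range or below it. The log2 fold change was 0.78 on CFA3D (SE 0.16, 95% interval 0.42 to 1.14, unadjusted limma p of 0.000781, adjusted p = 0.997), which ranked 7 of 16096 by p. On CFA6D it was 0.42 (SE 0.16, 95% interval 0.06 to 0.78, p of 0.0263, adjusted p = 0.368). The p on CFA6D passed 0.05 when any 1 of 3 libraries was left out, at 0.0778 without saline replicate 2, 0.0595 without saline replicate 3 and 0.0891 without CFA6D replicate 4, whereas on CFA3D p stayed between 0.000221 and 0.00404 whichever library was left out. From CFA3D to CFA6D the change was -0.36 (95% interval -0.72 to 0.00104, p of 0.0505), with a p of 0.00864 without CFA3D replicate 1 and 0.0428 without CFA6D replicate 4.

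Bdnf is read from several start sites, each with its own first exon spliced to a shared last exon (chr2:109723382-109727007) that holds the coding sequence of the mature protein. The table lists 11 Bdnf transcripts, of which 6 reached a mean of 0.1 FPKM. Bdnf-205, with a first exon at chr2:109693563-109693909, was the most abundant in saline with 51.1% ± 8.20 (SD, n = 3) of the Bdnf FPKM. Bdnf-209 (first exon chr2:109692436-109692774) held 18.8% ± 3.41, and Bdnf-201, which starts at the most upstream first exon (chr2:109674700-109675339), held 7.53% ± 2.70. Bdnf-210 and Bdnf-207, both starting at chr2:109675897, held 10.6% ± 4.85 and 6.79% ± 2.47. The shared last exon holds 3626 bases, so their levels rest on how reads in and next to the first exons were assigned.

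Bdnf-201 had the largest fold changes of the tested Bdnf transcripts, and it differs from the other tested Bdnf transcripts in its coding sequence. Its first exon ends with a start codon of its own, which gives a coding sequence of 771 bases in place of 747. The stretch below is from the spliced transcript sequence of the GENCODE M21 annotation. It runs from this start codon across the splice to the start codon used by the others, with both start codons in capitals.
Bdnf-201 coding start: ATGttccaccaggtgagaagagtgATG

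The 250 bases before the annotated starts of the 3 transcripts with the clearest movement are shown to allow their start regions to be compared. Those of Bdnf-201 (chr2:109674450-109674699, plus strand) and Bdnf-209 (chr2:109692186-109692435, plus strand) are from RefSeq and that of Bdnf-205 (chr2:109693313-109693562, plus strand) from the genome, all in GRCm38. Capitals mark a match to TGACG, the core of the motif bound by CREB-family factors, on the minus strand.
Bdnf-201: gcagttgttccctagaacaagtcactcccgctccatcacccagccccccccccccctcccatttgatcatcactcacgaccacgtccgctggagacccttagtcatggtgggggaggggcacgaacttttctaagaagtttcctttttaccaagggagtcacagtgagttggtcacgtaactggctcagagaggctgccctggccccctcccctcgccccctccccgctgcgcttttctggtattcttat
Bdnf-209: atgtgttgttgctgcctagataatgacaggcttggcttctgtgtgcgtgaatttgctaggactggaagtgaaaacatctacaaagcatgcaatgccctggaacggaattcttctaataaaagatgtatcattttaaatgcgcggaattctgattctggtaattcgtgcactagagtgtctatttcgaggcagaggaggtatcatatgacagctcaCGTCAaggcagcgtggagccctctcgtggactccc
Bdnf-205: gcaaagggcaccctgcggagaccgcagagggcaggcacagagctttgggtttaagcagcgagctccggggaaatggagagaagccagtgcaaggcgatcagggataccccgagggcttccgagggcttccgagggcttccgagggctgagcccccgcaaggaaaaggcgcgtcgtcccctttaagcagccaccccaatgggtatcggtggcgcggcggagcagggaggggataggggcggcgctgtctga
Both strands were searched for TGACG, for TGACGTCA, which contains it, and for TGANTCA. The single match was TGACG at position -35 before the start of Bdnf-209. Of 32851 promoters of this length in RefSeq, 17.8% hold TGACG, 1.55% TGACGTCA and 6.75% TGANTCA. The GC content was 58.0% for Bdnf-201, 45.6% for Bdnf-209 and 65.6% for Bdnf-205, with 9, 9 and 19 CpG dinucleotides.

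Bdnf-201 was higher on both days. Its level was 0.275, 0.113 and 0.166 FPKM in saline, 0.411, 1.37 and 0.673 FPKM on CFA3D and 1.08, 0.712 and 0.834 FPKM on CFA6D. All 6 CFA libraries lay above the 3 saline libraries, and CFA3D replicate 2 was the highest of all. In approximate read pairs the 3 saline libraries held 78.9 together, the CFA3D libraries 409 and the CFA6D libraries 430. The log2 fold change was 1.59 on CFA3D (SE 0.41, p of 0.00388, adjusted p = 0.986) and 1.80 on CFA6D (SE 0.41, p of 0.00188, adjusted p = 0.427), and the difference between the days was 0.20 (95% interval -0.72 to 1.13). It was the 1 member transcript called on CFA3D of 28 tested, and the 1 called on CFA6D, against 2.19% and 2.57% of all 66562 transcripts tested. As 1 of 28 is near these shares, the counts are no result about the member transcripts. Leaving out each library in turn kept p between 0.0013 and 0.0163 on CFA3D and between 0.00241 and 0.00895 on CFA6D.

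Of the first exon of Bdnf-201, 497 of 640 bases are shared with exons of Gm45346, a gene on the opposite strand (chr2:109670908-109676591). The kit named in the study's methods keeps the strand and the kit in the sample labels is named without it, and whether counting used the strand is not given in the sources used here. The level of Gm45346 in the lncRNA table was 0.107, 0.156 and 0.157 FPKM in saline, 0.137, 0.136 and 0.0861 FPKM on CFA3D and 0.145, 0.0319 and 0.123 FPKM on CFA6D. The listed level of Gm45346 in each CFA library was thus below that of the highest saline library. How reads in the shared bases were divided between Gm45346 and Bdnf-201 is not given either. These levels therefore cannot show whether antisense reads were counted in Bdnf-201, which was not tested. Gm45346 also shares 316 to 399 bases with the first exons of Bdnf-207 and Bdnf-210.

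Bdnf-205 and Bdnf-209 had higher values on CFA3D than on CFA6D. Whether their time course differs from that of Bdnf-201 was not tested. Bdnf-205 was at 1.15, 1.33 and 1.17 FPKM in saline, 1.76, 1.36 and 2.36 FPKM on CFA3D and 1.28, 1.0495 and 1.22 FPKM on CFA6D. The CFA3D libraries lay above all others, although replicate 2 did so by little. The log2 fold change was 0.52 on CFA3D (p of 0.0423), -0.037 on CFA6D (95% interval -0.53 to 0.46) and -0.55 from CFA3D to CFA6D (p of 0.0322). Bdnf-209 was at 0.510, 0.335 and 0.512 FPKM in saline, 0.526, 0.846 and 0.684 FPKM on CFA3D and 0.486, 0.358 and 0.395 FPKM on CFA6D. It had log2 fold changes of 0.50 (p of 0.0843), -0.097 and -0.60 (p of 0.0464) in the same order. The adjusted p was at least 0.918 for each of these values. The p of Bdnf-205 on CFA3D went above 0.05 without saline replicate 1 (0.0948), 2 (0.0533) or 3 (0.0903) or CFA3D replicate 1 (0.0816) or 3 (0.155). Its p between the days did so without CFA3D replicate 1 (0.0658) or 3 (0.119) or CFA6D replicate 5 (0.0953) or 6 (0.0565), and that of Bdnf-209 without CFA3D replicate 2 (0.152) or 3 (0.0931) or CFA6D replicate 5 (0.123) or 6 (0.0968).

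The remaining Bdnf transcripts were at most 0.457 FPKM in a library. Bdnf-207 and Bdnf-210 overlapped between the groups on both days, with p between 0.136 and 0.849. Bdnf-211 was listed at 0 in the saline libraries and reached 0.427 FPKM in CFA3D replicate 3 and 0.388 FPKM in CFA6D replicate 5, with p of 0.322 and 0.194. Bdnf-202, Bdnf-203, Bdnf-204, Bdnf-206 and Bdnf-208 stayed below a mean of 0.1 FPKM and were not tested.

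**Figure D2:**
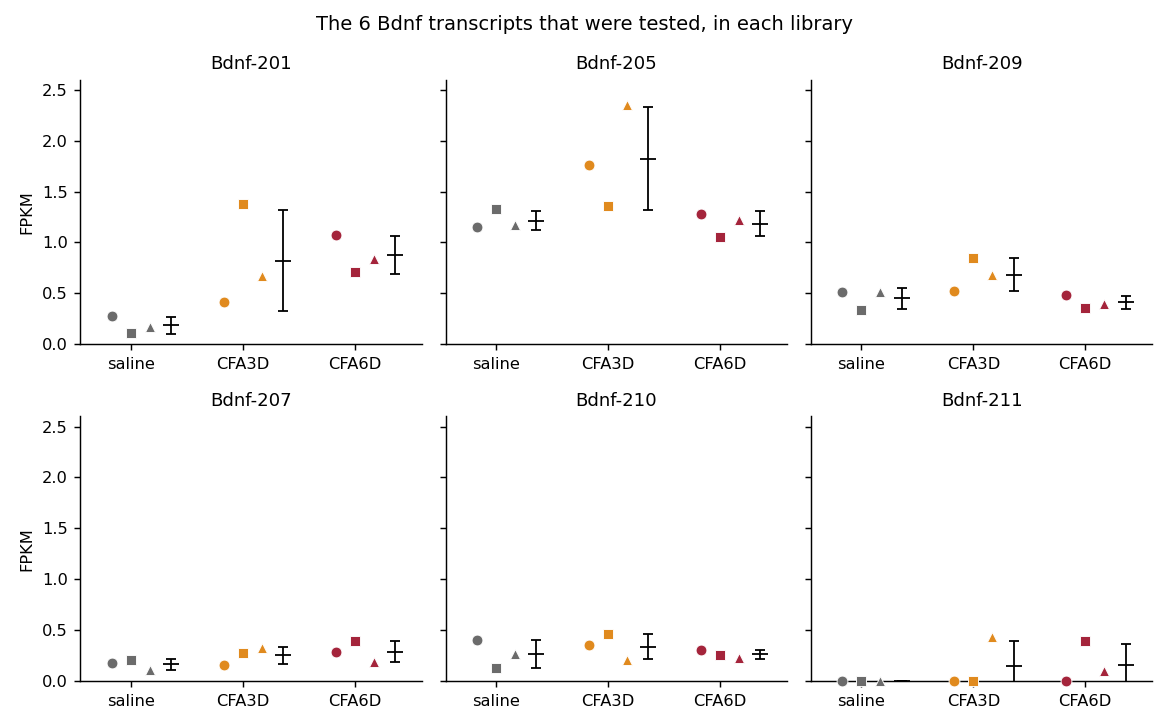
FPKM of the 6 Bdnf transcripts that reached a mean of 0.1 FPKM (vertical axis, the same linear scale for all) in the 9 libraries; symbols and bars as for the gene sums. Bdnf-201 is raised on both days, while Bdnf-205 and Bdnf-209 are highest on CFA3D and close to saline on CFA6D.

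The share of Bdnf-201 in the Bdnf RNA was higher in each CFA library than in any saline library, which is given as a description with no test. Bdnf-201 made up 10.4, 5.08 and 7.09% of the Bdnf FPKM in saline, 12.3, 30.7 and 13.8% on CFA3D and 29.9, 22.5 and 27.9% on CFA6D. Of the rise in the mean Bdnf level, 34.5% came from Bdnf-201 on CFA3D and 81.01% on CFA6D. In a fit made after these values were seen, the sum of all other Bdnf transcripts was still higher than saline on CFA3D, by 0.59 (SE 0.16, p of 0.00447, adjusted p = 0.997). On CFA6D it differed from saline by 0.096 (95% interval -0.26 to 0.45, p of 0.558), and its difference between CFA6D and CFA3D was -0.49 (SE 0.16, p of 0.0119). These other transcripts summed to 2.11 to 2.37 FPKM in saline, 2.95 to 4.20 FPKM on CFA3D and 2.16 to 2.52 FPKM on CFA6D.

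Ntf3, the ligand of TrkC, was measured at 0.0368, 0.31999 and 0.151 FPKM in saline, 0.141, 0.211 and 0 FPKM on CFA3D and 0.0441, 0.230 and 0.142 FPKM on CFA6D. At approximately 0 to 12.9 read pairs per library the groups overlapped fully, and the log2 fold changes of -0.31 (95% interval -1.57 to 0.95) and -0.11 (95% interval -1.37 to 1.15) leave changes of either sign undetected. Ntf5, a second ligand of TrkB, was above 0 in 5 of the 9 libraries and reached 0.147 FPKM in saline replicate 3, which is 11.6 read pairs. No change of Ntf5 was detectable at this depth. Ntf3 lies at chr6:126101412-126166910 on the minus strand and Ntf5 at chr7:45413695-45417179 on the plus strand.

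Ngfr, a receptor of the tumour necrosis factor receptor family that acts alone or together with Trk receptors, rose on both days. It lies on the minus strand at chr11:95568818-95587735 and has 1 transcript in the table. Its level was 75.9, 65.9 and 61.0 FPKM in saline, 83.1, 94.0 and 91.7 FPKM on CFA3D and 107.7, 93.3 and 90.5 FPKM on CFA6D. The lowest CFA library lay above the highest saline library on each day. The log2 fold change was 0.41 on CFA3D (SE 0.11, 95% interval 0.17 to 0.65, p of 0.00344, adjusted p = 0.997) and 0.52 on CFA6D (SE 0.11, 95% interval 0.29 to 0.76, p of 0.000686, adjusted p = 0.127). The days differed by 0.11 (95% interval -0.12 to 0.35). Without saline replicate 3, which had the high pituitary markers, the log2 fold changes were 0.34 (p of 0.014) and 0.45 (p of 0.00297).

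The median log2 fold change of the 15 neuron markers was 0.19 on CFA3D and on CFA6D, beside 0.05 and 0.03 for all gene sums. Their summed FPKM was 2814 to 3518 in saline, 3329 to 3969 on CFA3D and 3527 to 4250 on CFA6D. The saline low was replicate 3, which had the high pituitary markers. Saline replicates 1 and 2 were at 3518 and 3247, so saline and CFA3D overlapped. In limma 2 of the 15 markers had a p under 0.05 on CFA3D, against 4.45% of all gene sums. On CFA6D it was 6, against 11.1%, and all of these markers were higher. The summed level of 11 Schwann cell markers was 2671 to 3404 FPKM in saline, 2928 to 3394 FPKM on CFA3D and 2566 to 3669 FPKM on CFA6D, and that of 11 satellite glia markers was 1151 to 1299, 1111 to 1234 and 950.3 to 1167 FPKM. Fibroblast markers were at 505 to 628 FPKM in saline, 477 to 776 FPKM on CFA3D and 365.0 to 604.4 FPKM on CFA6D. In this sum replicate 4 alone lay below the saline range on CFA6D. Macrophage markers were at 99.3 to 124 FPKM in saline, 84.9 to 151 FPKM on CFA3D and 61.4 to 96.8 FPKM on CFA6D, there below every saline library. List medians on CFA6D were 0.03 for Schwann cell, -0.13 for satellite glia, -0.27 for fibroblast and -0.35 for macrophage markers. In limma 3 of 10 fibroblast and 1 of 10 macrophage markers were lower on CFA6D with a p under 0.05. Of the Schwann cell markers 1 was higher, and 0 satellite glia markers passed. On CFA3D 0 markers of these 4 lists passed. All markers of these lists were above 0 in all 9 libraries. The part of these cell types in the result was not tested.

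**Figure D3:**
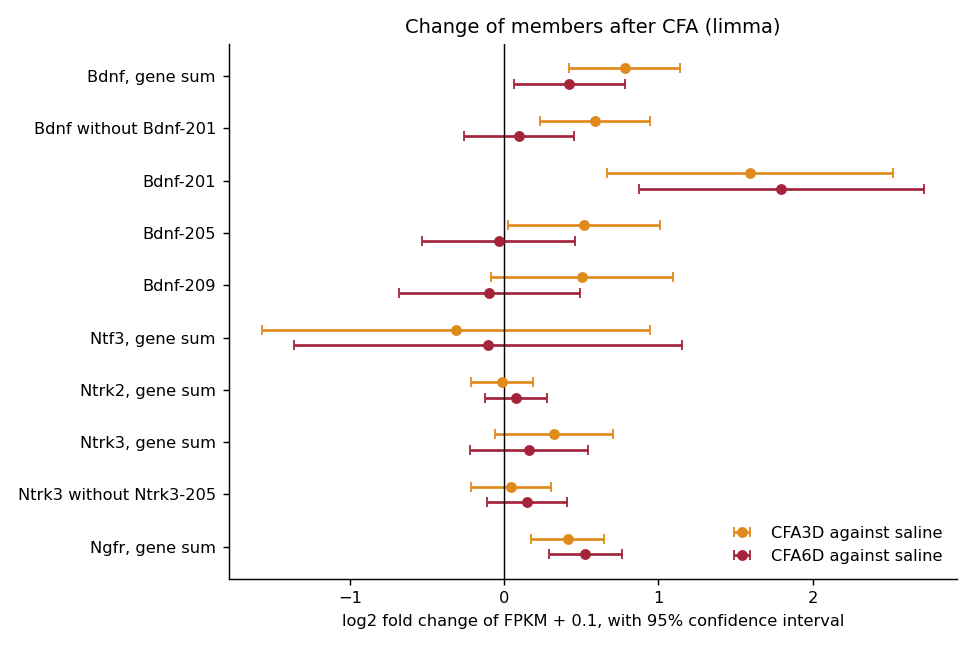
Log2 fold change of FPKM + 0.1 against saline (horizontal axis) with its 95% confidence interval from limma, for CFA3D and CFA6D, for the 5 gene sums tested, 3 Bdnf transcripts and 2 sums with 1 transcript left out. Intervals for Bdnf, Bdnf-201 and Ngfr lie above 0 on both days, and the Bdnf sum without Bdnf-201 lies above 0 on CFA3D and spans 0 on CFA6D.

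The gene sums of the Trk receptors had p above 0.05 in limma on both days. Both genes make full receptors with an intracellular kinase and truncated receptors that lack it, bind the ligand and can limit its signal. Transcripts were classed by their annotated stop codon. The truncated form of TrkB in Ntrk2-202 and that of TrkC in Ntrk3-202 end in exons of their own, whose coding bases are given below with the stop codon in capitals (GRCm38, chr13:58932023-58932060, plus strand, and chr7:78302629-78302747, minus strand). They are shown because Ntrk2-202 and Ntrk3-202 had the highest level of the truncated transcripts of their gene. Other truncated Ntrk2 transcripts, such as Ntrk2-205, end elsewhere.
Ntrk2-202: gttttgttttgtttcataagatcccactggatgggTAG
Ntrk3-202: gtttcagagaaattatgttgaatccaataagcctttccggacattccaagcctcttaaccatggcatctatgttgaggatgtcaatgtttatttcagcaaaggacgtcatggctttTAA

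Ntrk2 (chr13:58806569-59133970, plus strand) was at 24.6, 22.1 and 22.5 FPKM in saline, 22.1, 22.4 and 23.8 FPKM on CFA3D and 25.5, 21.6 and 26.0 FPKM on CFA6D. The groups overlapped, with log2 fold changes of -0.017 (95% interval -0.22 to 0.18) and 0.076 (95% interval -0.13 to 0.28). Changes of the gene sum beyond these bounds were not seen on either day. The truncated transcript Ntrk2-202 (10.5 to 13.0 FPKM over the 9 libraries) exceeded the kinase transcript Ntrk2-201 (5.86 to 8.25 FPKM) in every library. On CFA6D Ntrk2-201 was at 8.15 to 8.25 FPKM, above the saline range of 5.86 to 7.67 FPKM, with a log2 fold change of 0.25 (p of 0.0979), and that of Ntrk2-202 was -0.039 (p of 0.738). A further truncated transcript, Ntrk2-205, ranged from 0.249 to 2.54 FPKM with full overlap of the groups.

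Ntrk2-204, a lesser transcript for a truncated receptor, was the 1 member transcript called between the CFA days. It was at 1.15, 0.733 and 0.295 FPKM in saline, 0.304, 0.593 and 0.311 FPKM on CFA3D and 1.01, 0.783 and 1.17 FPKM on CFA6D. The CFA6D libraries lay above the CFA3D libraries, and the saline libraries spanned both. The log2 fold change from CFA3D to CFA6D was 1.15 (SE 0.43, p of 0.0267, adjusted p = 0.918). This 1 call of 28 tested is near the 2.23% of all transcripts called in that comparison. The call was lost without CFA3D replicate 1 or 3 or without CFA6D replicate 4 or 6. Over gene sums this comparison gave 0 of 5 members with a p under 0.05 in limma, 0 called and 0 without overlap, against 7.39%, 0.77% and 16.7% of all gene sums.

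Ntrk3 (chr7:78175959-78738012, minus strand) was at 26.3, 25.4 and 20.0 FPKM in saline, 25.2, 26.4 and 39.5 FPKM on CFA3D and 26.4, 28.3 and 25.0 FPKM on CFA6D. CFA3D replicate 3 stood far above the other libraries, and the rest overlapped. The log2 fold changes were 0.32 on CFA3D (95% interval -0.061 to 0.71, p of 0.09) and 0.16 on CFA6D (95% interval -0.23 to 0.54). Without 1 library the value on CFA3D ranged from 0.12 to 0.44, with a p of 0.0397 without CFA3D replicate 1. The excess of that library lay in 1 transcript, Ntrk3-205, which was listed at 18.1 FPKM there and at 0.343 to 1.24 FPKM in the other 8 libraries. Ntrk3-205 differs from the main kinase transcript Ntrk3-201 by an added coding exon of 42 bases (chr7:78204103-78204144, minus strand), in the part that encodes the kinase, which is shown here because it is the coding difference between them.
Ntrk3-205 added exon: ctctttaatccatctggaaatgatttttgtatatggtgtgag

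Without Ntrk3-205 the Ntrk3 sum of CFA3D replicate 3 was 21.4 FPKM, inside the range of 19.5 to 27.1 FPKM of the other libraries, and the log2 fold change on CFA3D was 0.043 (95% interval -0.22 to 0.30, p of 0.721), in a fit made after the value was seen. Ntrk3-201 was at 12.2 to 17.7 FPKM in saline, 14.5 to 15.7 FPKM on CFA3D and 17.1 to 17.8 FPKM on CFA6D. It differed from saline by 0.019 (p of 0.89) and by 0.24 (95% interval -0.062 to 0.55, p of 0.104). Without saline replicate 1 the latter was 0.38, with a p of 0.00988. The truncated Ntrk3-202 was at 1.996 to 5.30 FPKM over the 9 libraries with overlapping groups. Ntrk3-204 and Ntrk3-220, which carry no complete coding sequence, also passed a mean of 1 FPKM and ranged from 0.846 to 2.06 and from 0.805 to 1.78 FPKM.

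Truncated transcripts made up 64.9% ± 3.27 (SD, n = 3) of the Ntrk2 FPKM with a complete coding sequence in saline, 61.6% ± 1.66 on CFA3D and 62.4% ± 3.18 on CFA6D. The differences of -3.23 and -2.46 percentage points had exact permutation p-values of 0.3 and 0.4 (two-sided), where 0.1 is the smallest p that 3 against 3 libraries allow. For Ntrk3 the truncated share was 16.9% ± 2.05 in saline, 16.0% ± 8.73 on CFA3D and 13.4% ± 4.68 on CFA6D, with exact permutation p-values of 0.9 and 0.3. The wide spread on CFA3D includes the library with high Ntrk3-205. TrkB RNA in these ganglia was thus mostly of the truncated kind and TrkC RNA mostly of the kinase kind, in every library.

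**Figure D4:**
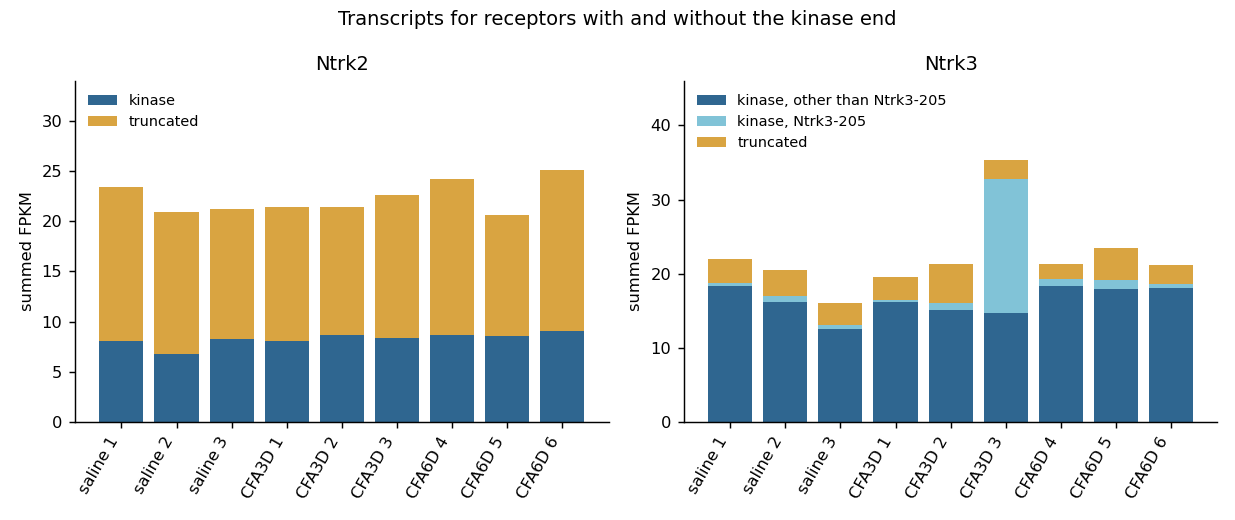
Summed FPKM (vertical axis, linear and starting at 0) of kinase and truncated transcripts of Ntrk2 and Ntrk3, stacked, in each of the 9 libraries; Ntrk3-205 is drawn apart from the other kinase transcripts. Truncated transcripts exceed kinase transcripts of Ntrk2 in every library, and CFA3D replicate 3 alone shows a large Ntrk3-205 share.

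Beyond the ligands and receptors, 106 genes of the pathway were followed in 6 lists, and 105 of them were tested. The lists were chosen when earlier results of these data were known. Their counts beside the share of all gene sums are therefore a description and no test of the lists. On CFA3D 4 of the 105 had a p under 0.05, all higher, which at 3.81% was close to the 4.45% of all gene sums. Without saline replicate 1 this count was 15. On CFA6D 25 were higher and 1 was lower, or 24.8% against 11.1%, and their count without 1 library lay between 17 (without saline replicate 2 or CFA6D replicate 6) and 29. Their median log2 fold change was 0.11 and 0.12 on these days, beside 0.05 and 0.03 for all gene sums. From CFA3D to CFA6D 8 were higher and 2 lower (Gab1 and the feedback inhibitor Spry2, with a difference of -0.29), or 9.52% against 7.39%, and without CFA6D replicate 6 the count of 10 became 6.

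Of the 6 lists, genes that neurotrophin signalling is known to induce had the highest median on both days. On CFA6D 7 of the 16 genes of this list rose and 4 were called (Vgf, Egr3, Egr2 and Plaur), where 11.1% of all gene sums had a p under 0.05 in either direction and 0.584% were called. On CFA3D 1 rose, against 4.45% of all gene sums. Vgf, which encodes a neuropeptide precursor induced by BDNF in sensory neurons, was at 8.64, 11.2 and 12.3 FPKM in saline, 16.2, 27.03 and 21.4 FPKM on CFA3D and 29.2, 20.3 and 25.3 FPKM on CFA6D. Both CFA groups lay above saline, by 0.98 on CFA3D (SE 0.21, p of 0.000912, adjusted p = 0.997) and by 1.21 on CFA6D (SE 0.21, p of 0.000206, adjusted p = 0.0992). The immediate early transcription factors Egr3 (log2 fold change 1.19, p of 0.00137) and Nr4a1 (0.99, p of 0.00187) rose on CFA6D, and their values on CFA3D were 0.13 (p of 0.635) and 0.16 (p of 0.52). From CFA3D to CFA6D they rose by 1.06 (p of 0.00287) and 0.84 (p of 0.00528). Egr2, which also serves as a Schwann cell marker, was 1.27 higher on CFA6D than in saline (p of 0.0478) and 1.78 higher than on CFA3D (p of 0.0105). Plaur, the receptor of urokinase, was 1.33 higher on CFA6D (p of 0.0202), and Egr1 0.84 higher (p of 0.00842). Other genes of this list, among them Arc, Fos, Fosb and Dusp4, had a p of at least 0.05 in limma on both days. Many other stimuli induce these genes too.

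Among partners and adaptors of p75, 1 of 14 genes rose on CFA3D and 2 rose on CFA6D, against 4.45% and 11.1% of all gene sums with a p under 0.05. The list median on CFA6D was 0.000587, so these counts describe single genes and not the list. Lingo1, a co-receptor of p75, was at 12.0, 13.1 and 11.9 FPKM in saline, 14.2, 12.9 and 14.9 FPKM on CFA3D and 19.1, 14.7 and 18.6 FPKM on CFA6D, and the CFA6D libraries exceeded saline by 0.49 (SE 0.11, p of 0.00166, adjusted p = 0.156). Arhgdia, which encodes a protein that p75 binds, rose by 0.17 (p of 0.0456) on CFA3D and 0.31 (p of 0.00185) on CFA6D, and on CFA3D its p was between 0.0527 and 0.152 without any library but saline replicate 1. The other 12 genes of this list had a p of at least 0.05 in both comparisons.

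Of the kinases and adaptors downstream of Trk receptors, the Ras and MAPK list had 2 of 20 genes higher on CFA3D and 3 on CFA6D, Rps6ka2, Rps6ka3 (0.34, p of 0.0046) and the GTPase Rap1b (0.26, p of 0.048). All counts of these kinases, adaptors and processing genes are to be read against the 4.45% of all gene sums on CFA3D and the 11.1% on CFA6D with a p under 0.05. For the Ras and MAPK list and the processing genes they are too near to those shares to be a result about the list. The ribosomal S6 kinases Rps6ka2 and Rps6ka3, targets of ERK, rose by 0.23 (p of 0.0284) and 0.23 (p of 0.0306) on CFA3D, and Rps6ka2 rose by 0.35 on CFA6D (p of 0.00295). On CFA3D p of both went above 0.05 without CFA3D replicate 1 or 3, for Rps6ka2 also without saline replicate 2 or 3 (0.0531 to 0.0929) and for Rps6ka3 without saline replicate 1 (0.0769 to 0.0972). In the PI3K, Akt and PLC gamma list 0 of 20 genes had a p under 0.05 in limma on CFA3D and 7 rose on CFA6D. Gsk3b, a kinase that Akt inhibits, was 0.37 higher on CFA6D than on CFA3D (p of 0.0109). Of 22 Trk adaptors 0 had a p under 0.05 on CFA3D, and on CFA6D Sos1 (0.26), Shc2 (0.36), Grb2 (0.70) and Sh2b1 (0.23) rose and Crk fell by 0.60 (p of 0.0448), genes named after their values were seen. The docking protein Gab1 was lower on CFA6D than on CFA3D, with a difference of -0.37 (p of 0.0107). Of 13 tested genes that process or sort proneurotrophins 0 had a p under 0.05 on CFA3D and on CFA6D the protease Furin (0.34, p of 0.0145) and the sorting receptor Sorl1 (0.29, p of 0.0387) rose, with a list median of 0.00203. The smallest adjusted p of these lists was 0.0992, for Vgf on CFA6D.

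**Figure D5:**
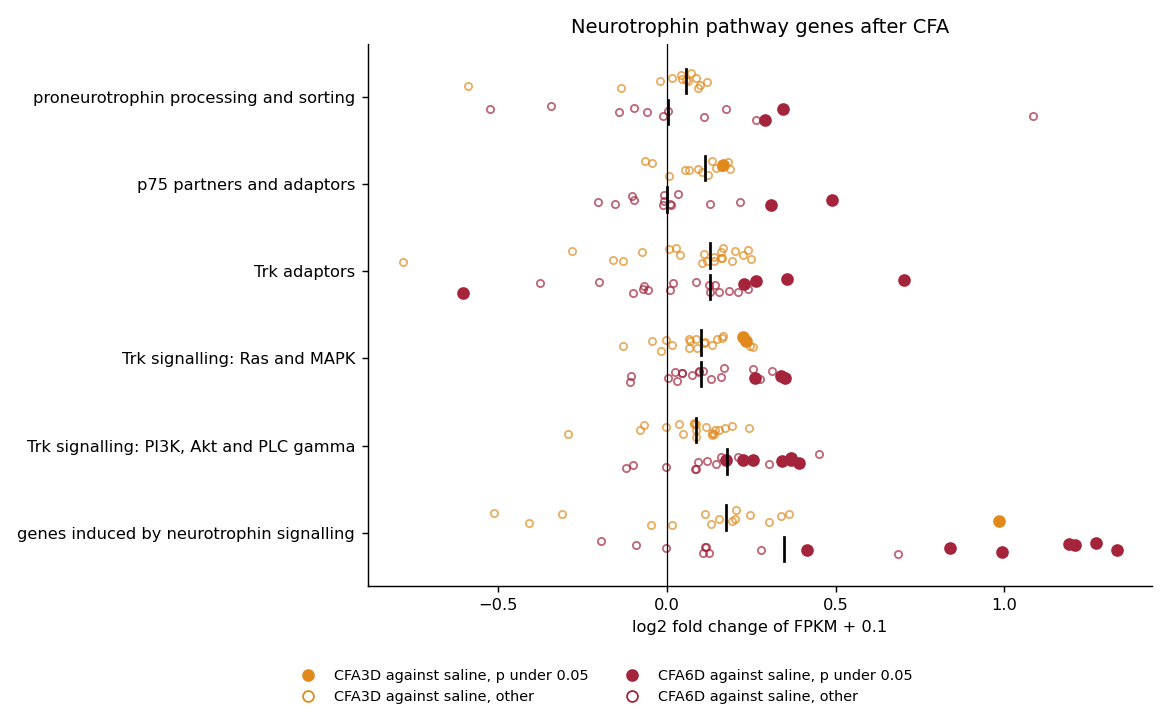
Log2 fold change of FPKM + 0.1 against saline (horizontal axis) for the tested genes of the 6 pathway lists; filled points have an unadjusted p under 0.05 in limma, open points do not, and black bars are list medians. Genes induced by neurotrophin signalling spread furthest to the right on CFA6D, with a median of 0.35 there and 0.17 on CFA3D.

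Over the 9 libraries the genes whose log2 levels followed each member most closely were named by Pearson's r among 13174 other gene sums of at least 1 FPKM (13175 for Ntf3 and Ntf5, which do not reach this level). For Bdnf they were Disp3 (r = 0.98), Hif1an (0.94) and Slc29a2 (0.94), and for Ngfr Timp2 (0.98), Gpc1 (0.97) and Ywhab (0.97). Ntrk2 was closest to Ncln (0.94), Grid1 (0.94) and Fxyd4 (0.92), and Ntrk3 to Acvr2a (0.96), Ndufa8 (0.96) and Clgn (0.93). For the low Ntf3 and Ntf5 the closest were Gpx3 (0.88), Tsku (0.85) and Prpf40b (0.84), and Angpt1 (0.95), Pcnt (0.95) and Arhgap23 (0.94). Bdnf and Ngfr correlated with each other at 0.77. These values describe 9 libraries that share their group differences and depth, and the genes named are the highest of all those compared.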

How the data were processed

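FPKM values per transcript of total TG RNA were deposited by the authors for 9 libraries. The study's methods name trimming with Trimmomatic, mapping to GRCm38 and CLC Genomics Workbench, while the submitters' processing notes name Bowtie 0.12.2 and mm8. The tool that divided reads among transcripts is not given in the sources used here. Transcripts were matched by identifier to GENCODE M21 (GRCm38), and the FPKM of 101539 matched mRNA transcripts was summed per gene. The lncRNA table was used only for genes overlapping a member.

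Levels were put on the scale log2(FPKM + 0.1) and tested with limma 3.58.1 (R 4.3.3) with a trended empirical Bayes fit of 3 groups over all 9 libraries, for features with a mean of at least 0.1 FPKM. Such fold changes understate changes of low features. A feature was called at an unadjusted p below 0.05 together with a change of 1 log2 unit or more, and adjusted p-values are Benjamini-Hochberg over the whole table. The fits were tested on simulated data. Isoform shares were compared by exact permutation tests in Python 3.11.15. The worth of 1 read pair was read from the steps of FPKM times length, and approximate read pairs were computed from it.

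The members and lists were chosen with earlier results of these data known. Named were all members, all Bdnf transcripts, other member transcripts of at least 1 FPKM or called, per comparison the 6 pathway genes with the smallest p under 0.05, and the 3 most alike genes per member. Further pathway genes, and values of named genes in other comparisons, were added after the values were seen. 2 further genes of the family are not reported here. Alternatives were pseudocounts of 0.01 and 1, a mean of at least 1 FPKM, no filter, quantile normalization, only the groups compared, the highest transcript in place of the sum, a replicate block, every transcript in the denominator of a share and leaving out each library. Sums without Bdnf-201 or Ntrk3-205, and the alternatives on pathway genes, were added after the data were seen.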

Additional observations from a re-analysis of the deposited data

Results flagged for a closer look

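Several values differed between the CFA days at an unadjusted p under 0.05 in limma, by a test of the difference itself (CFA6D against CFA3D), and the adjusted p was at least 0.577 for each. Among the members Bdnf-205 differed by -0.55 on the log2 scale, Bdnf-209 by -0.60 and Ntrk2-204 by 1.15. The Bdnf sum without Bdnf-201 differed by -0.49 (lower in 3 of 3 CFA6D libraries than in any CFA3D library). This sum was formed after the values were seen, and Bdnf-201 was left out for its rise in these same data. The full Bdnf sum is not among these values, with -0.36, a limma p of 0.0505 and overlap between the days. Among the pathway genes named, the differences were 1.06 for Egr3, 0.84 for Nr4a1, 1.78 for Egr2, 0.37 for Gsk3b, 0.31 for Lingo1 and -0.37 for Gab1. The p of Bdnf-205, Bdnf-209, Ntrk2-204 and Lingo1 went above 0.05 when certain single libraries were left out, for Lingo1 CFA3D replicate 2 (0.0781) or CFA6D replicate 4 (0.085) or 6 (0.0755). Groups of 3 libraries are too small for a test of single outlying libraries.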

How the results depend on the processing

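The higher levels of Bdnf on CFA3D, of Ngfr on both days and of Bdnf-201 on both days kept their direction and a p under 0.05 under every alternative run on them. Their fold change depends on the scale for low transcripts: Bdnf-201 was at 0.59 and 0.66 on CFA3D and CFA6D with a pseudocount of 1, and at 2.01 and 2.25 with 0.01. Member transcripts called became 0 in each of the 3 comparisons with a pseudocount of 1 and with a mean of at least 1 FPKM, which removes Bdnf-201 and Ntrk2-204 from the test. Without 1 library these counts ranged from 1 to 2 on CFA3D (Ntrk2-204 was also called, at -1.07, without saline replicate 3, the library with high pituitary markers, and Ntrk3-205, at 2.66 with a p of 0.039, without CFA3D replicate 1), from 1 to 2 on CFA6D (Ntrk3-210 was also called, at 1.25, without CFA6D replicate 5) and from 0 to 1 between the days. Members with a p under 0.05 became 1 on CFA6D with the highest transcript in place of the sum, and 1 between the days with it, with either pseudocount and with a mean of at least 1 FPKM. Without 1 library they ranged from 2 to 3 on CFA3D (Ntrk3 also passed, at 0.44 with a p of 0.0397, without CFA3D replicate 1), from 1 to 2 on CFA6D and from 0 to 1 between the days. Pathway genes with a p under 0.05 ranged from 3 to 15 on CFA3D (15 without saline replicate 1), from 17 to 29 on CFA6D (17 without saline replicate 2 or CFA6D replicate 6) and from 6 to 11 between the days.

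Signs turned only for values with an unadjusted p over 0.05, apart from Bdnf on CFA6D, which was -0.037 with its highest transcript, Bdnf-205, in place of the sum. With that choice Ntrk2 was -0.039 on CFA6D and -0.019 between the days, and Ntrk3 was 0.22 between the days and 0.10 without Ntrk3-205. Quantile normalization gave -0.072 for Ntrk3-201 on CFA3D and -0.0032 for Ntrk2 on CFA6D. Without 1 library Ntf3 ranged from -0.73 to 0.17 on CFA3D, -0.52 to 0.29 on CFA6D and -0.28 to 0.54 between the days, Ntrk2 from -0.049 to 0.030 on CFA3D, Ntrk3 from -0.28 to 0.041 between the days, Bdnf-201 from -0.15 to 0.61 between the days, Bdnf-205 from -0.092 to 0.041 on CFA6D, Ntrk2-201 from -0.0044 to 0.19 on CFA3D, Ntrk2-202 from -0.097 to 0.042 on CFA3D and -0.12 to 0.031 on CFA6D, Ntrk3-201 from -0.12 to 0.15 on CFA3D, Ntrk3-202 from -0.19 to 0.30 on CFA3D and -0.49 to 0.055 on CFA6D, and Ntrk3-205 from -0.018 to 2.66 on CFA3D. The truncated share of Ntrk3 on CFA3D ranged from -5.37 to 3.36 percentage points.

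With the replicate number as a block, 2 members on CFA3D again had a p under 0.05 (0.00364 for Bdnf and 0.0134 for Ngfr, in limma), and Bdnf-201 kept its call (0.037), while Bdnf-205, Rps6ka2, Rps6ka3 and Arhgdia went above 0.05. Deviations of same-numbered saline and CFA3D libraries correlated at 0.0873, -0.0802 and 0.029998, so the numbers are not taken to pair the samples. The cause of these differences between settings was not tested. Depth limits Ntf3 and Ntf5, with at most 12.9 read pairs in a library.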
